A study of Mus musculus with 90 samples.

Results

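Transcripts of 3 hypothalamic peptides and 4 of their receptors were followed across brain regions and times after a social encounter: the peptide precursors Hcrt, Pmch and Gal, and the receptors Hcrtr1, Hcrtr2, Mchr1 and Galr1. The 7 genes were chosen by name, with results of these data already known, and each was matched to 1 of the 37991 mouse Ensembl identifiers of the deposited count table. No measured value entered the choice.

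The 90 libraries come from resident male C57BL/6J mice that had shared a cage with a C57BL/6J female, which was taken out before the trial. A resident was shown a wire cage for 5 min that held either an unfamiliar BALB/c male (intruder libraries) or a paper cup (control libraries), and both kinds of resident had been housed the same way. Amygdala, frontal cortex and hypothalamus were dissected after 30, 60 or 120 min, which gives 18 groups. Most groups hold 5 libraries. The exceptions are the 30 min hypothalamus controls, with 3, and both 120 min frontal cortex groups, with 6 each. Genotypes other than the strain and ages are not given in the sources used here. The sample labels tie each library to 1 of 32 animals, and 28 animals gave all 3 regions, while the series text says that RNA was pooled to make libraries without saying how.

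Orexin, the product of Hcrt, and melanin-concentrating hormone (MCH), the product of Pmch, are made by separate groups of neurons in the lateral hypothalamus that project through most of the brain. Orexin is known for sustaining wakefulness, MCH for its part in sleep and feeding, and galanin, the product of Gal, for feeding, sleep and parental behaviour, with neurons in several hypothalamic nuclei and outside them. Orexins act on Hcrtr1 and Hcrtr2, MCH in rodents on Mchr1, and galanin on Galr1 and related receptors, all of them coupled to G proteins.

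The sequences just upstream of the peptide genes are shown because the 3 genes share the hypothalamus as the region of their highest level, so that a reader can see what stands before each start site. The 250 bases before the annotated start, 5′ to 3′ on the strand of the gene, are from RefSeq, assembly GRCm38.p6, which is not the build named in the submitters' processing notes. They lie at chr11:100762932-100763181 on the minus strand for Hcrt, at chr10:88090822-88091071 on the plus strand for Pmch and at chr19:3414545-3414794 on the minus strand for Gal. Capitals mark matches to TATAAA or GGGCGG.
Hcrt: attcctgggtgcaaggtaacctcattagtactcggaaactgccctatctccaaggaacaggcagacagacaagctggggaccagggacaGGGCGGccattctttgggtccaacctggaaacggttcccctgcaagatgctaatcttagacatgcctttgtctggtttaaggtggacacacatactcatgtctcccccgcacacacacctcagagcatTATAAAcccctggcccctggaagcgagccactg
Pmch: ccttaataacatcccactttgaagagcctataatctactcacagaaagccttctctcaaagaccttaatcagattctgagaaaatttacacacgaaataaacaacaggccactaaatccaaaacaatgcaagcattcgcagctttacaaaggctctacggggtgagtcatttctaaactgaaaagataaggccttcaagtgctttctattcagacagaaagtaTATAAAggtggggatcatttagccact
Gal: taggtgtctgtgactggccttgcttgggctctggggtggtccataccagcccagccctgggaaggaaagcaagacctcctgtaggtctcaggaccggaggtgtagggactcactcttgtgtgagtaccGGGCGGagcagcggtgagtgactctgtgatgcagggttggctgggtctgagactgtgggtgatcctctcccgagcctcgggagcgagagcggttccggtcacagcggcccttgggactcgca

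The letters TATAAA, the core of a TATA box, were found 33 to 28 bases before the start of Hcrt and 27 to 22 bases before that of Pmch, and not in this window of Gal. The letters GGGCGG, a GC box, were found in the windows of Hcrt and Gal and not in that of Pmch. Both strands were searched, and of 32851 windows of the same length before annotated starts 12.4% held TATAAA and 32.7% held GGGCGG. Matches to TAATTA (4.84% of windows), TGACG (17.8%) and CCAAT (33.8%) were looked for as well and were absent from these 3 windows. A match is a description of the sequence and not of a site in use.

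Depth was 38.6 to 58.86 M reads assigned to genes per library, with a median of 49.0 M. Levels are given as CPM, the read count of a gene relative to the total of its library, with totals scaled by the trimmed mean of M-values (TMM). All 30 min libraries carry 1 token in their column headers and all later libraries another, so that the step from 30 min to later times and whatever that token stands for cannot be told apart. In 6 of the 28 hypothalamus libraries Agrp, a transcript of arcuate neurons, lay at 0.0522 to 0.633 CPM, against 1.48 to 10.9 in the other 22. These 6 are control libraries 3 and 5 and intruder library 4 at 30 min, control library 6 at 60 min, and control library 6 and intruder library 3 at 120 min. The summed level of 10 transcripts typical of hypothalamus, Agrp among them, was 454 to 1247 CPM in hypothalamus, 24.2 to 99.7 in amygdala and 1.59 to 42.3 in frontal cortex. The upper end in frontal cortex belongs to intruder library 1 of 120 min, and the next library was at 9.42. In hypothalamus the upper end is intruder library 1 of 120 min, where the next was at 942, and it also held the highest level of Gal, Pmch, Mchr1 and Hcrtr1 but not of Hcrt.

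In hypothalamus all 3 peptide transcripts were abundant, and in amygdala and frontal cortex Hcrt and Pmch were at the edge of detection. Hcrt had 2052 to 10551 reads per hypothalamus library, 0 to 7 in amygdala, with 3 libraries at 0, and 1 to 10 in frontal cortex. Pmch had 11427 to 36333 reads in hypothalamus, 4 to 50 in amygdala and 1 to 249 in frontal cortex. Gal had 1105 to 2467 reads in hypothalamus and 28 to 269 in amygdala, and in frontal cortex 0 to 251, with 2 libraries at 0. For each of the 3 peptides, the lowest hypothalamus library lay above the highest library of both other regions. The amygdala and frontal cortex overlapped for all 3, Gal only through the 1 frontal cortex library with 251 reads. The share of all genes whose regions stay apart in this way was not counted, here or for the receptors below.

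**Figure D1:**
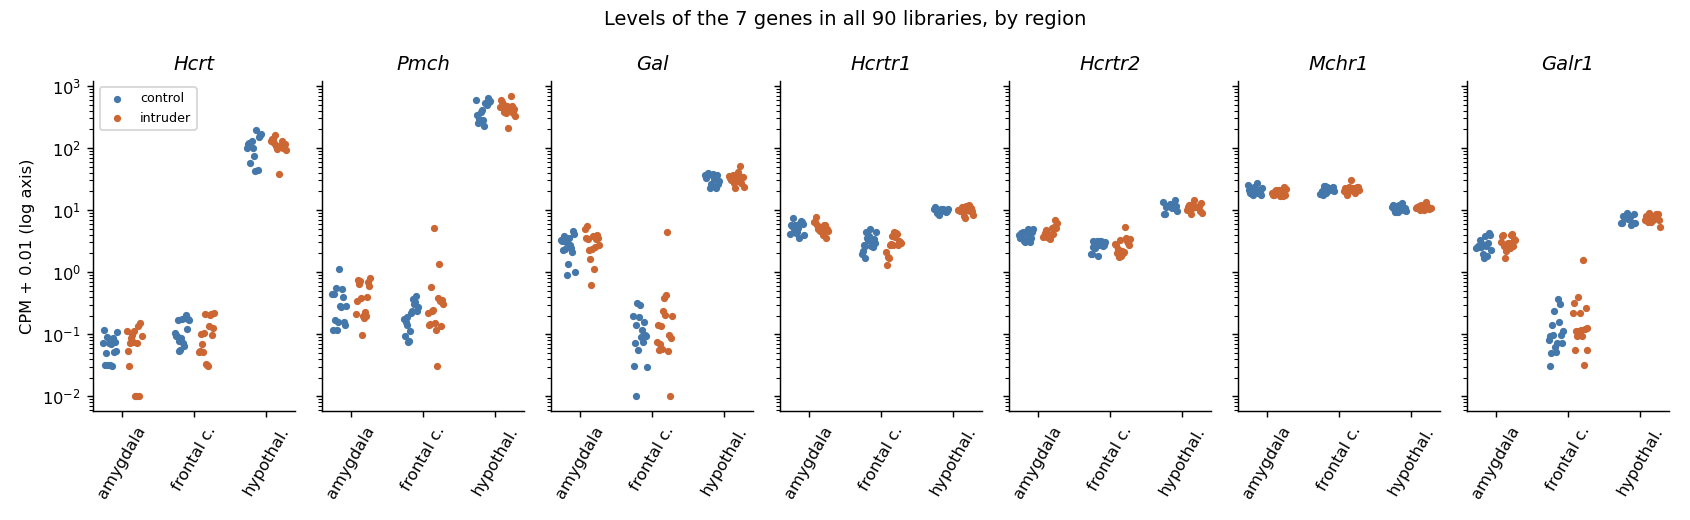
CPM of the 7 genes in every library, on a log axis after 0.01 was added so that libraries at 0 can be drawn, by region; blue points are control and orange points intruder libraries. Hcrt, Pmch and Gal in hypothalamus lie apart from both other regions, Mchr1 is lowest in hypothalamus, and single orange points stand apart for Pmch, Gal and Galr1 in frontal cortex.

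Region differences were tested in the 44 control libraries with the edgeR quasi-likelihood test and Benjamini-Hochberg adjustment over 18056 genes, at an adjusted p below 0.05. This fit treated regions of the same animal as independent libraries, and blocking by animal was an alternative. Between hypothalamus and frontal cortex all 7 genes passed, 6 higher and Mchr1 lower in hypothalamus, where 82.2% of all genes tested passed, 41.4% higher and 40.8% lower. The log2 difference was 11.12 ± 0.191 (SE) for Pmch, a fold of 2224. It was 9.97 ± 0.226 for Hcrt, a fold of 1002, and 8.20 ± 0.246 for Gal, a fold of 294. The median over all genes was 0.01. Because tissue was measured in bulk, more cells of a type and more RNA per cell cannot be told apart in any of these values.

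Against amygdala, too, all 7 genes passed in hypothalamus, with 72.3% of all genes passing, 35.9% higher and 36.4% lower. Hcrt was 10.91 ± 0.248 higher on the log2 scale (adjusted p = 8.06e-31) and Pmch 10.26 ± 0.181 higher (adjusted p = 9.08e-35). Gal differed less, by 3.58 ± 0.170, since amygdala held an intermediate level of this peptide. Between amygdala and frontal cortex 5 of the 7 genes passed, all 5 higher in amygdala, with 67.8% of all genes passing, 34.6% higher and 33.2% lower, and Gal was 4.62 ± 0.273 higher in amygdala, a fold of 24.5.

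Hcrt and Pmch were low in both amygdala and frontal cortex, and their differences between the 2 regions were unsteady. Pmch was 0.86 ± 0.345 higher in amygdala (adjusted p = 0.0263), but the same contrast in intruder libraries gave -0.45 ± 0.519 (adjusted p = 0.455). In those, intruder library 2 of 60 min held 249 of the 467 Pmch reads of the 16 frontal cortex libraries, and without it the difference was 0.63 ± 0.389 (adjusted p = 0.153). The Pmch call was lost when any of 3 of the 31 control libraries was left out, all of amygdala: library 5 of 30 min, library 1 of 120 min and library 3 of 60 min, without which the difference was 0.56 (adjusted p = 0.119). Hcrt was at -0.94 ± 0.652 (adjusted p = 0.200). When libraries of the same animal were blocked, the Hcrt difference was -0.95 ± 0.316 (adjusted p = 0.00977), and DESeq2 gave -0.97 ± 0.347 (adjusted p = 0.00913). In intruder libraries it was -0.41 ± 0.505 (adjusted p = 0.484), and -0.11 ± 0.576 (adjusted p = 0.874) without the same library 2 of 60 min. The Hcrt values rest on a median of 3 reads per amygdala library and 4 per frontal cortex library.

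Levels of different genes were compared per kilobase of annotated exon (Gencode M21). In hypothalamus the order of mean CPM per kilobase over 28 libraries was Pmch with 583 ± 168 (SD), Hcrt with 150 ± 50.9 and Gal with 41.2 ± 8.31. The receptors followed well below, Mchr1 with 5.03 ± 0.470, Hcrtr1 with 3.78 ± 0.398, Galr1 with 2.45 ± 0.332 and Hcrtr2 with 1.83 ± 0.255. The libraries of Pmch (at least 283) and Hcrt (at most 262) did not overlap, nor did those of Gal (at least 28.3) and Mchr1 (at most 6.24). The other neighbours in this order overlapped, Hcrt and Gal between 50.8 and 66.0, and each receptor with the next. In amygdala and in frontal cortex Mchr1 led, with 9.19 ± 1.16 and 9.81 ± 1.18 CPM per kilobase. Hcrt was the lowest of the 7 in amygdala, at 0.0795 ± 0.0492, and Galr1 in frontal cortex, at 0.0589 ± 0.0915.

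Pmch shares sequence space with a neighbour. In Gencode M21, 435 of the 749 exon bases of Pmch (58.1%) lie opposite exons of Parpbp on the other strand, and these are 12.1% of the exon bases of Parpbp. Parpbp was 1.23 ± 0.139 higher on the log2 scale in hypothalamus than in frontal cortex (adjusted p = 1.88e-10). The library kit keeps strand, but whether strand was used in counting is not given in the sources used here, so the share of reads exchanged between the 2 genes was not tested.

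The receptors were spread over all 3 regions. Hcrtr2, the orexin receptor known for its role in wakefulness, ranged from 8.63 to 14.7 CPM in hypothalamus, from 2.99 to 6.84 in amygdala and from 1.73 to 5.24 in frontal cortex. Hypothalamus stood above both other regions without overlap, by 1.50 ± 0.0879 (log2) over amygdala and 2.05 ± 0.0887 over frontal cortex. Hcrtr1, which binds orexin A more strongly than orexin B, ranged from 7.53 to 12.0 CPM in hypothalamus, from 3.47 to 7.81 in amygdala and from 1.31 to 4.91 in frontal cortex. Hypothalamus and amygdala overlapped between 7.53 and 7.81 CPM, and the difference was 0.89 ± 0.0888 (adjusted p = 1.23e-11). Amygdala was above frontal cortex by 0.80 ± 0.0875 for Hcrtr1 and by 0.55 ± 0.0870 for Hcrtr2.

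Mchr1, the only MCH receptor of rodents, ran the other way to its peptide. It ranged from 9.30 to 13.7 CPM in hypothalamus, from 16.6 to 27.4 in amygdala and from 17.3 to 30.1 in frontal cortex, so that the hypothalamus libraries were all below the others. The log2 difference was -0.95 ± 0.0628 against frontal cortex and -0.93 ± 0.0634 against amygdala, a level 1.94 and 1.91 times lower. Amygdala and frontal cortex differed by -0.02 ± 0.0575 (adjusted p = 0.746). Galr1, an inhibitory galanin receptor, was the 1 gene of the 7 whose 3 regions did not overlap at all: 5.24 to 8.99 CPM in hypothalamus, 1.65 to 4.22 in amygdala and 0.0213 to 1.57 in frontal cortex. How common this is among all genes was not counted. It was 1.37 ± 0.134 higher in hypothalamus than in amygdala and 4.70 ± 0.194 higher in amygdala than in frontal cortex.

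Other genes of the 3 systems were read from lists. Galr2, a second galanin receptor, had 316 reads over the 28 hypothalamus libraries, 10 over the 30 amygdala libraries and 16 over the 32 frontal cortex libraries, and was 4.87 ± 0.411 higher (log2) in hypothalamus than in frontal cortex. Galp, the galanin-like peptide, had too few reads to be tested, and Galr3 was not matched. Of 5 genes known from orexin or MCH neurons, 4 were called higher and 1 lower in hypothalamus against frontal cortex, where 41.4% of all genes were called higher and 40.8% lower. Higher were Lhx9, a transcription factor of orexin neurons, by 4.57 ± 0.267, Tacr3, a neurokinin receptor of MCH neurons, by 3.92 ± 0.169, Cartpt, a peptide precursor made with MCH, by 2.87 ± 0.165, and Pdyn, the dynorphin precursor made with orexin, by 0.93 ± 0.216. Nptx2, a synaptic pentraxin also found in orexin neurons, was the lower one, at -1.24 ± 0.139. The median of the 5 was 2.87.

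Of 6 genes for the cutting and finishing of peptide precursors, 3 were higher in hypothalamus than in frontal cortex and 2 lower, with a median of 0.20, beside 41.4% and 40.8% of all genes. The convertase Pcsk1 was 0.62 ± 0.0897 higher and the convertase Pcsk2 was at -1.18 ± 0.0479. Of 8 genes for G protein subunits and phospholipases that such receptors signal through, 2 were higher and 5 lower, with a median of -0.30, beside the same 41.4% and 40.8% of all genes. Plcb1, a phospholipase, differed most, at -1.78 ± 0.0610.

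The central question of the design is whether the intruder changed these transcripts. No member was called in any of 9 comparisons of intruder with control: 0 of 57 tests by edgeR's quasi-likelihood test, 3 of 57 at an unadjusted p below 0.05. DESeq2 gave an adjusted p for 53 of the 57 and called 0, with 2 at an unadjusted p below 0.05. The 4 without one were Pmch at the 3 times in frontal cortex and at 120 min in amygdala. The share of all genes called by edgeR was 0% in 7 of the comparisons, 0.538% for the 120 min amygdala and 0.192% for the 120 min hypothalamus. Of the genes with an adjusted p, DESeq2 called 0% in the same 7, 2.87% for the 120 min amygdala and 0.627% for the 120 min hypothalamus. At an unadjusted p below 0.05, the share of all genes at 30, 60 and 120 min was 2.74%, 7.13% and 15.1% in amygdala, 6.28%, 2.54% and 5.34% in frontal cortex, and 1.92%, 2.22% and 11.5% in hypothalamus. Hcrt could be tested in hypothalamus only, because its counts in the other regions were too low.

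**Figure D2:**
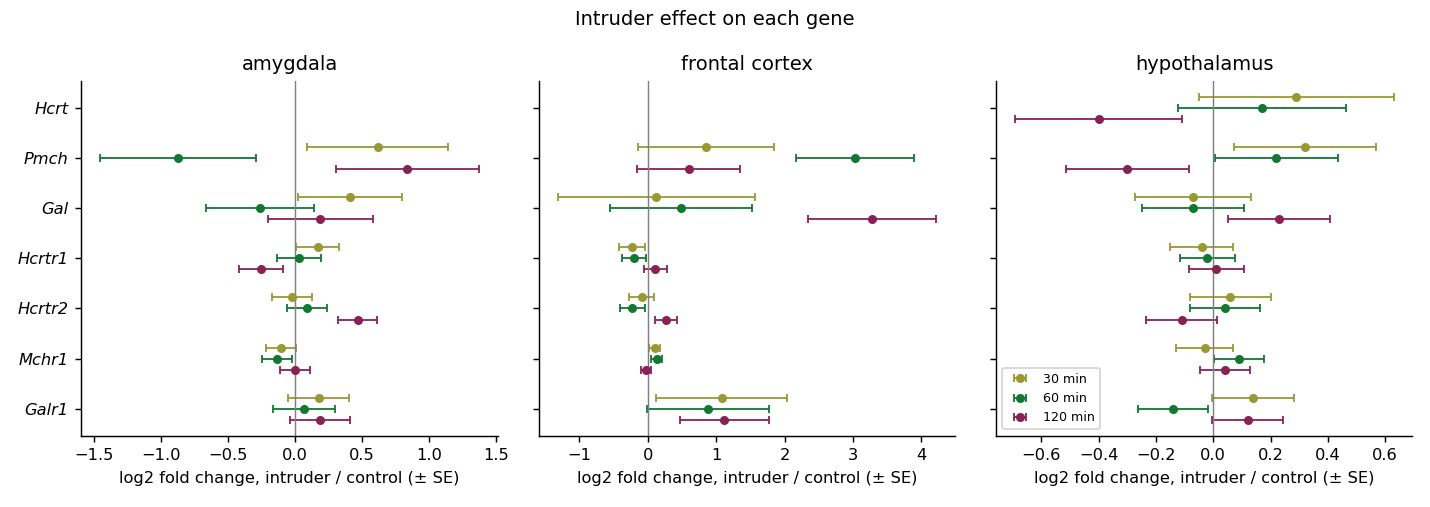
Log2 fold change of intruder over control with its standard error for each gene, by region (panels, with their own horizontal scales) and time (colours); Hcrt was tested in hypothalamus only. Estimates lie between -0.87 and 0.84 in amygdala and between -0.40 and 0.32 in hypothalamus, and the 2 points above 3 in frontal cortex are Pmch at 60 min and Gal at 120 min, each set by 1 library.

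In hypothalamus, where the peptides are made, Hcrt at 30 min was 101, 116 and 118 CPM in the controls and 129, 140, 137, 119 and 159 in the intruder libraries. The groups did not overlap, which held for 1 of the 57 tests and for 3.24% of all genes in this comparison of 3 with 5 libraries. In the other comparisons 0.868%, 0.370% and 3.22% of genes did not overlap in amygdala at the 3 times, 1.05%, 0.363% and 0.246% in frontal cortex, and 0.498% and 1.28% in hypothalamus at 60 and 120 min. The log2 difference of 0.29 ± 0.339 did not pass (adjusted p = 1.00). At 60 min the controls were at 57.6, 128, 99.9, 73.1 and 42.8 CPM and the intruder libraries at 109, 97.3, 107, 38.0 and 102, an estimate of 0.17 ± 0.293 (adjusted p = 1.00) that ran from 0.01 without control library 6 to 0.40 without control library 2. At 120 min the controls were at 196, 43.6, 149, 160 and 169 CPM and the intruder libraries at 130, 101, 105, 117 and 91.8. Control library 2 lay far below its group, and the other 4 controls lay above all 5 intruder libraries, but the estimate of -0.40 ± 0.292 did not pass (adjusted p = 0.605). It was -0.63 ± 0.239 without that library (adjusted p = 0.529, unadjusted p = 0.0143) and -0.26 ± 0.306 without control library 1 (adjusted p = 0.749).

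Pmch in hypothalamus was 600, 337 and 257 CPM in the 30 min controls and 455, 585, 552, 515 and 382 in the intruder libraries, within the range of the controls. At 60 min the controls were at 298, 386, 403, 280 and 230 and the intruder libraries at 417, 372, 473, 212 and 394. At 120 min the controls were at 527, 492, 645, 557 and 576 and the intruder libraries at 686, 474, 371, 417 and 331. Here 4 of 5 intruder libraries lay below all controls and 1 above them. The log2 differences were 0.32 ± 0.249, 0.22 ± 0.214 and -0.30 ± 0.214 at 30, 60 and 120 min, with adjusted p of 1.00, 1.00 and 0.599. At 30 min the Pmch estimate ran from 0.09 without control library 5, which is poor in Agrp, to 0.74 without control library 2. At 60 min it ran from 0.12 without intruder library 3 to 0.37 without intruder library 4. At 120 min it was -0.49 ± 0.210 without intruder library 1 (adjusted p = 0.431, unadjusted p = 0.0278) and -0.20 ± 0.223 without intruder library 6 (adjusted p = 0.767).

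Gal in hypothalamus stayed between 22.3 and 52.0 CPM in all groups. Group means ran from 29.1 in controls at 120 min to 35.5 in controls at 30 min. The highest value, 52.0, was that of intruder library 1 at 120 min, which had the highest hypothalamic sum. The intruder effect on Gal was -0.07 ± 0.203, -0.07 ± 0.177 and 0.23 ± 0.177 at the 3 times. Without that library the Gal estimate at 120 min was 0.03 (adjusted p = 0.965). The receptor transcripts were steadier: their estimates in hypothalamus ran from -0.14 ± 0.123 for Galr1 at 60 min to 0.14 ± 0.143 for Galr1 at 30 min.

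**Figure D3:**
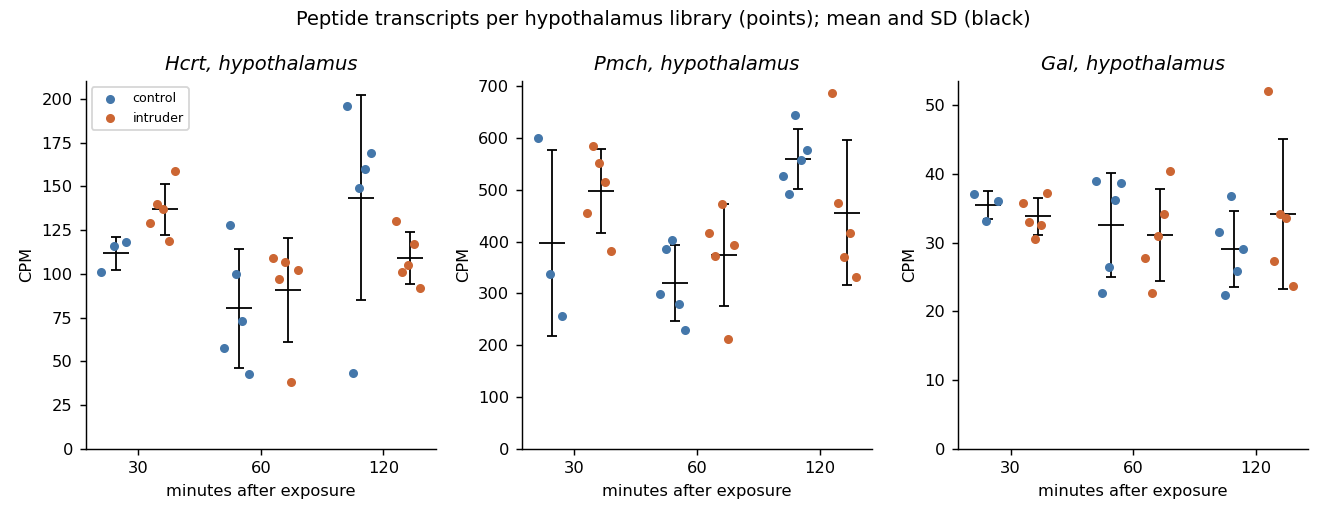
CPM of Hcrt, Pmch and Gal in each hypothalamus library by time after exposure; blue points are control and orange points intruder libraries, and black lines give the mean and SD of a group. The groups overlap at 60 min and 120 min for all 3, and Hcrt control library 2 at 120 min (43.6) and intruder library 4 at 60 min (38.0) lie far below their groups.

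Libraries of 1 group differed more in these peptides than in most genes. The standard deviation within groups, on the log2 scale with a pseudocount of 1 CPM, was 0.542 for Hcrt, 0.370 for Pmch and 0.293 for Gal in hypothalamus, against a median of 0.102 over 14361 genes. Of those genes 99.1%, 97.8% and 96.3% had a lower value. The receptors were at 0.129 for Mchr1, 0.143 for Hcrtr1, 0.182 for Galr1 and 0.190 for Hcrtr2. With 5 against 5 libraries, the standard error of an Hcrt effect was about 0.292 to 0.293 on the log2 scale.

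Hcrt and Pmch were correlated between hypothalamus libraries. Over 28 libraries, after the mean of each group was taken out, Pearson's r was 0.50 between Hcrt and Pmch (permutation within groups, two-sided, p = 0.00287, adjusted over 3 pairs 0.00861) and Spearman's rho was 0.48 (p = 0.0102). Without the 2 libraries farthest from the median of Hcrt, r was 0.39. Between Hcrt and Gal r was -0.01 (rho -0.09), and between Pmch and Gal 0.05 (rho -0.10), both with an adjusted p of 0.970. As a description without a test, r of Pmch with the 10 hypothalamic transcripts ran from -0.08 for Trh to 0.70 for Ghrh with a median of 0.46, and 4 of them, Ghrh, Agrp and Pomc (0.62 each) and Fezf1 (0.60), were above the 0.50 of Hcrt. With the 5 genes of orexin or MCH neurons it was 0.77 for Cartpt, 0.68 for Nptx2, 0.65 for Pdyn, -0.19 for Tacr3 and -0.52 for Lhx9. The points of each pair share their libraries and their scaling factors, and the part of these transcripts in the correlation of Hcrt with Pmch was not tested.

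The ratio of Hcrt to Pmch within a library does not depend on its depth. Its log2 was -1.85 ± 0.350 (SD, n = 5) in intruder and -1.74 ± 0.743 (n = 3) in control libraries at 30 min, -2.09 ± 0.235 and -2.07 ± 0.341 (n = 5 each) at 60 min, and -2.03 ± 0.271 and -2.12 ± 0.807 (n = 5 each) at 120 min. The differences of -0.11, -0.02 and 0.09 were within the spread (exact permutation tests, two-sided, p = 0.786, 0.897 and 0.921, all 0.921 after adjustment over 3). The most uneven library was control library 2 at 120 min, at -3.49, where Hcrt was low and Pmch was not.

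The 6 hypothalamus libraries with little Agrp, which include 2 of the 3 controls of 30 min, had lower medians of Pmch, Hcrtr2 and Mchr1 and higher ones of the other 4 members. Hcrt was 42.8 to 169 CPM in them (median 117) and 38.0 to 196 in the other 22 (median 108), Pmch was 230 to 576 (median 354) and 212 to 686 (median 464), and Gal had medians of 35.1 and 32.0. Hcrtr2 was lower, 8.63 to 11.3 (median 9.23) against 8.97 to 14.7 (median 11.6). The medians of the other receptors were 10.3 and 11.1 for Mchr1, 10.6 and 9.69 for Hcrtr1, and 7.92 and 7.27 for Galr1, and for all 7 members the ranges of the 6 and of the 22 overlapped. Pomc, another arcuate transcript, was 3.46 to 16.4 against 17.2 to 71.5, and Cartpt had medians of 41.7 and 64.7. The medians of Oxt (210 and 206) and Trh (136 and 121) were not lower in the 6, and those of Lhx9 (9.32 and 4.97) and of the thalamic Tcf7l2 (47.9 and 23.0) were higher. Leaving out these 6 libraries takes 2 of the 3 controls of 30 min. Tests that use that group, among them the region contrasts, then rest on too few libraries for a count to be read. In the intruder tests of 60 and 120 min and the time test of intruder libraries, 0 members were called without the 6.

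In amygdala the 1 member near the threshold was Hcrtr2 at 120 min. The controls were at 3.89, 2.99, 3.60, 4.47 and 4.94 CPM, and the intruder libraries at 4.06, 5.33, 6.84, 5.19 and 6.18. All but 1 of the intruder libraries lay above every control. The log2 difference was 0.47 ± 0.146 with an unadjusted p of 0.00336 and an adjusted p of 0.125, which ran from 0.0525 with DESeq2 to 0.372 with the library index as a block.

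The 2 intruder libraries with the most Hcrtr2, 3 and 6, and the control with the most, 6, were also those with the highest summed level of 4 striatal transcripts: 602 and 560 CPM, and 575 in the control, against 100 to 221 in the other 7. Of the 4 thalamic transcripts, the same 2 intruder libraries had the highest sums, 71.0 and 64.2 CPM, against 36.9 to 52.2 in the other 8 libraries of that time. No listed striatal or thalamic transcript was at 0 in any of these libraries. Their part in the Hcrtr2 value was not tested.

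The other members in amygdala had estimates from -0.87 to 0.84, the widest being those of Pmch, which had 4 to 50 reads per library. The -0.87 of Pmch at 60 min became 0.03 without control library 3. Gal in amygdala had group means from 1.91 CPM in intruder libraries at 60 min to 3.93 in intruder libraries at 30 min, with intruder effects of 0.41 ± 0.389, -0.26 ± 0.403 and 0.19 ± 0.392. Mchr1 was the steadiest, at -0.10 ± 0.112, -0.13 ± 0.112 and -0.00 ± 0.112.

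In frontal cortex the 2 values of unadjusted p below 0.05 were each set by 1 library. Pmch at 60 min was 0.0654, 0.0691, 0.104, 0.206 and 0.224 CPM in the controls and 0.238, 5.11, 0.140, 0.108 and 0.0212 in the intruder libraries. The fitted log2 difference of 3.03 ± 0.869 (unadjusted p = 0.00147, adjusted p = 1.00) became -0.13 without intruder library 2, which held 249 Pmch reads, and DESeq2 gave no p for it. None of the 10 hypothalamic transcripts was above all other frontal cortex libraries in that library, and their sum was 5.11 CPM. Hcrt was at 0.205 there, within the range of the other 31 libraries but the highest of its group. Its 10 Hcrt reads were the most of any frontal cortex library.

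Gal at 120 min was 0.109, 0.0644, 0.149, 0.0878, 0.0837 and 0.0201 CPM in the controls and 4.44, 0.0437, 0.0884, 0, 0.0783 and 0.184 in the intruder libraries. The difference of 3.28 ± 0.938 (unadjusted p = 0.00148, adjusted p = 0.440) became -0.12 without intruder library 1. This library also held the highest Galr1 of the region, 1.57 CPM against at most 0.381 elsewhere, and the highest Hcrtr2, 5.24 against at most 3.50. In it 7 of the 10 hypothalamic and 3 of the 4 thalamic transcripts were above every other frontal cortex library.

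The hypothalamic peptide Oxt was at 15.6 CPM there, against at most 0.685 in the other 31 libraries, and Avp was at 8.35 against at most 1.25. Lhx9 was at 5.98 against at most 1.01, and the thalamic factor Tcf7l2 at 24.9 against at most 6.93. Hcrt, at 0.124, and Pmch, at 0.371, lay within the range of the others. The sums were 42.3 CPM of hypothalamic and 95.8 of thalamic transcripts, where the other libraries had 1.59 to 9.42 and 30.3 to 35.8. Their part in the Gal, Galr1 and Hcrtr2 values was not tested. Without the library, the intruder estimate of Galr1 at 120 min went from 1.12 ± 0.651 to -0.60.

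**Figure D4:**
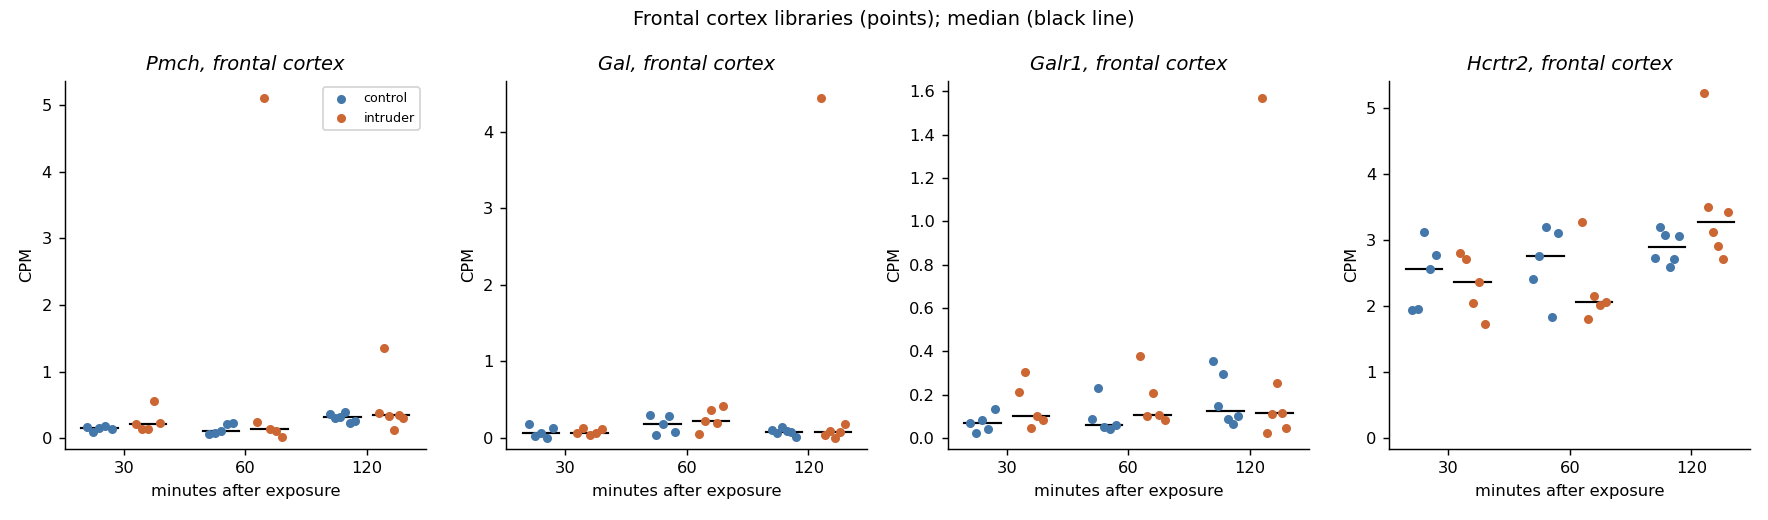
CPM of Pmch, Gal, Galr1 and Hcrtr2 in each frontal cortex library by time after exposure; blue points are control and orange points intruder libraries, and black lines are medians. Intruder library 2 at 60 min stands apart for Pmch (5.11), and intruder library 1 at 120 min for Gal (4.44), Galr1 (1.57) and Hcrtr2 (5.24).

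Tests of whether the intruder effect differed between times called 0 members by edgeR in each region, where 0% of genes in amygdala and frontal cortex and 0.0113% in hypothalamus were called. No member had an unadjusted p below 0.05 in them, where 12.1%, 4.45% and 5.67% of all genes did, and the lowest was that of Hcrtr2 in amygdala, 0.0656. DESeq2 was not run for the tests over time.

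Time after the exposure itself was followed within each condition, and steps from 30 min share the 30 min libraries of that condition. In frontal cortex Hcrtr1 was lowest at 30 min. The controls were at 1.92, 2.17, 2.75, 2.67 and 1.70 CPM at 30 min, and at 4.34, 3.59, 3.31, 3.82 and 4.91 at 60 min. The groups did not overlap, as was so for 24.7% of all genes in this comparison. Hcrtr1 was 0.82 ± 0.181 higher (log2) at 60 than at 30 min (adjusted p = 0.000943), where 17.2% of all genes were called higher. Reads without a feature were 10.99% to 12.7% of these control libraries at 30 min and 8.99% to 9.71% at 60 min. Their part in the step was not tested, and the header token changes with the step as well.

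The same step was seen in the intruder libraries, in other animals but with the same change of header token. Reads without a feature were 11.4% to 13.19% of these libraries at 30 min and 8.63% to 10.29% at 60 min. Hcrtr1 was at 2.12, 1.31, 1.71, 1.65 and 2.76 CPM at 30 min and at 2.78, 3.77, 2.77, 4.34 and 3.73 at 60 min, again without overlap, as for 19.4% of genes. The difference was 0.85 ± 0.184 (adjusted p = 0.000379), where 22.3% of genes were called higher. From 30 to 120 min it was 0.80 ± 0.177 (adjusted p = 0.00326) in intruder libraries and 0.46 ± 0.176 in controls, which did not pass (adjusted p = 0.130), where 9.02% and 1.94% of genes were called higher. Over the 3 times Hcrtr1 was called in both conditions, with adjusted p of 0.00343 and 0.000543, where 33.4% and 46.1% of all genes were called.

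Mchr1 in frontal cortex moved the same way by less. The controls were at 18.0, 18.3, 20.3, 19.4 and 17.3 CPM at 30 min, and at 24.4, 24.0, 18.6, 23.7 and 20.9 at 60 min. The intruder libraries were at 20.6, 22.8, 19.2, 17.6 and 19.8 and then at 23.7, 22.5, 30.1, 22.9 and 22.9. The groups overlapped in both conditions, and the differences were 0.24 ± 0.0807 (adjusted p = 0.0202) and 0.27 ± 0.0804 (adjusted p = 0.00594). Of all genes, 17.2% and 22.3% were called higher in this step, and 33.4% and 46.1% were called over the 3 times. These are the libraries of the Hcrtr1 step, with the same change of header token and of reads without a feature. Over the 3 times the adjusted p was 0.0322 in controls, lost on leaving out any of 5 of the 16 control libraries (30 min libraries 1, 2 and 5, and 60 min libraries 1 and 5, to 0.0515 to 0.0870). In intruder libraries it was 0.0160, and 0.104 without library 3 of 60 min, the one at 30.1 CPM.

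**Figure D5:**
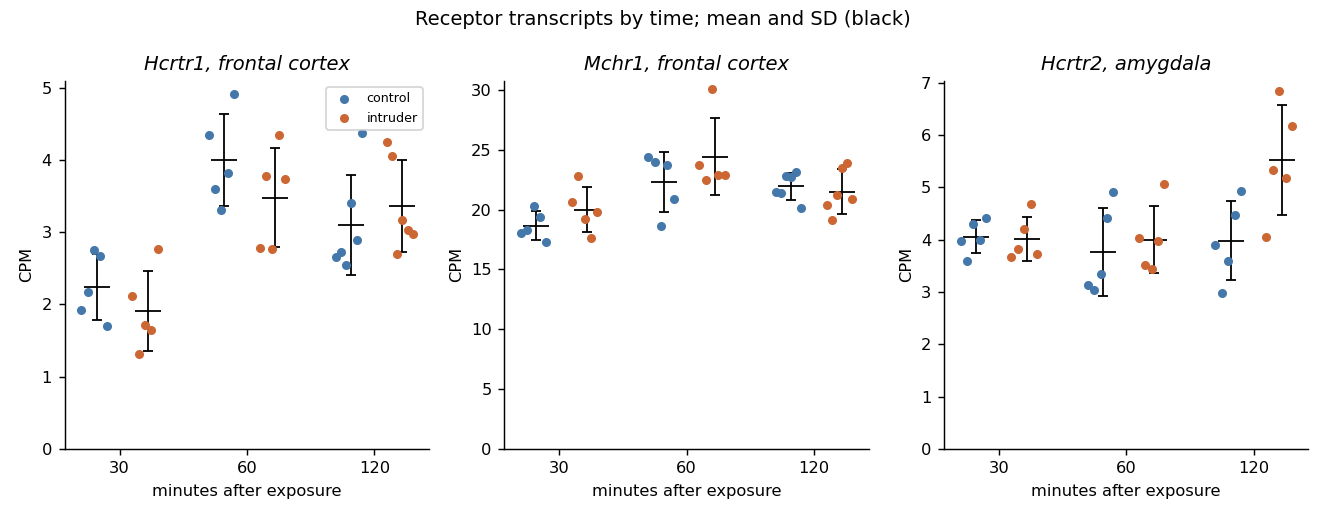
CPM of Hcrtr1 and Mchr1 in frontal cortex and Hcrtr2 in amygdala by time after exposure; blue points are control and orange points intruder libraries, and black lines give the mean and SD of a group. Hcrtr1 at 30 min lies below 60 min in both conditions, and 4 of the 5 amygdala intruder libraries at 120 min lie above all controls of that time.

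Hcrtr2 and Gal were called over time in the frontal cortex intruder libraries, with adjusted p of 0.00415 and 0.0164, where 46.1% of all genes were called. Hcrtr2 was 0.57 ± 0.172 higher at 120 than at 30 min (adjusted p = 0.0216) and 0.62 ± 0.173 higher than at 60 min (adjusted p = 0.0118), where 9.02% and 12.9% of genes were called higher. Without intruder library 1 of 120 min, described above, the adjusted p over time was 0.0292 for Hcrtr2 and 0.0246 for Gal. The step of Hcrtr2 from 30 to 120 min was then 0.41 ± 0.160 and no longer called (adjusted p = 0.0753), and that from 60 to 120 min 0.46 ± 0.161 (adjusted p = 0.0431). Gal was 3.25 ± 0.996 higher at 120 than at 30 min, and of the 269 Gal reads in the 120 min intruder libraries that library held 251. Without it the Gal step from 30 to 120 min was -0.15 ± 0.711 (adjusted p = 0.914), and the 60 min group was highest, 1.53 ± 0.578 above 30 min (adjusted p = 0.0299) on 58 reads in 5 libraries. Pmch at 60 min was 2.11 ± 0.783 higher than at 30 min in intruder libraries (adjusted p = 0.0274), where 22.3% of all genes were called higher. The 60 min group includes the library with 249 Pmch reads. Without that library the step turned to -1.05 ± 0.595 (adjusted p = 0.160). Over the 3 times Pmch did not pass (adjusted p = 0.0568), although it passed when any 1 of 7 intruder libraries was left out, with an adjusted p of 0.0154 to 0.0377. The lowest was without the library of 249 reads, where the 120 min group was 1.90 ± 0.541 above 60 min (adjusted p = 0.0221). Of the 135 Pmch reads of that 120 min group, intruder library 2 held 62.

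In amygdala the intruder libraries gave 1 member over time, Hcrtr2, with an adjusted p of 0.0377, where 12.9% of genes were called. It was 0.46 ± 0.146 higher at 120 than at 30 min (adjusted p = 0.0334), where 8.86% of genes were called higher. At 30 min it was 3.67, 3.83, 4.20, 4.68 and 3.73 CPM, and 4 of the 5 libraries of 120 min lay above these. The call was lost without the filter on low counts and when any of 12 of the 15 intruder libraries was left out, with an adjusted p of up to 0.140 without library 3 of 120 min. These libraries also include the 2 with the highest striatal and thalamic sums. Amygdala controls gave 0 called members by edgeR and 0 at an unadjusted p below 0.05, with 0.232% of genes called and 10.9% at an unadjusted p below 0.05.

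In hypothalamus no member was called over time by edgeR, in controls (0.181% of genes) or in intruder libraries (1.49%). At an unadjusted p below 0.05 there were 2 members in controls and 0 in intruder libraries, and 9.88% and 14.4% of all genes. The 2 were Pmch and Hcrt, with an unadjusted p of 0.00310 and 0.0289 and adjusted p of 0.239 and 0.437. From 60 to 120 min the estimates were 0.81 ± 0.215 for Pmch (adjusted p = 0.245) and 0.84 ± 0.294 for Hcrt (adjusted p = 0.426). In intruder libraries the same step was 0.29 ± 0.214 and 0.27 ± 0.292. The Pmch controls were at 492 to 645 CPM at 120 min and at 230 to 403 at 60 min.

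No gene of these other lists was called between intruder and control in any region by edgeR. From 30 to 60 min in frontal cortex, the receptor coupling list had 5 of 8 genes called in controls, 2 higher and 3 lower, and the same counts in intruder libraries, where 35.4% and 45.5% of all genes were called. Gna11 was 0.13 ± 0.0361 and 0.17 ± 0.0361 higher, and Plcb1 was at -0.31 ± 0.0781 and -0.34 ± 0.0781. Of the 6 processing genes, 2 were called in controls, 1 in each direction, and 4 in intruder libraries, 2 in each direction. Pcsk1n, an inhibitor of the convertase Pcsk1, was 0.29 ± 0.0708 and 0.40 ± 0.0708 higher at 60 min.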

How the data were processed

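The deposited table holds counts, as whole reads for each Ensembl gene in each library, without normalization. Per the labels' protocols, RNA was extracted with Trizol, treated with DNase and made into stranded mRNA libraries read from a single end. The submitters' processing notes name CASAVA 1.8.2, TopHat2 2.0.8, HTSeq 0.6.1, edgeR 3.2.4, R 3.0.0 and the build NCBIM37, without their roles. The last entries of the table, which name no gene, were left out of library sizes: reads without a feature were 8.63% to 14.46% of a library, ambiguous reads 0.63% to 0.76% and reads without a unique alignment 9.79% to 11.5%.

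Here each region was fitted with edgeR 4.0.16 (R 4.3.3): filterByExpr, TMM, a coefficient for each of 6 groups, and the quasi-likelihood F test, two-sided, with Benjamini-Hochberg adjustment over all genes tested (17277 in amygdala, 17091 in frontal cortex, 17676 in hypothalamus). Called means an adjusted p below 0.05. The standard error is the absolute log2 fold change over the root of F. Region contrasts used 9 groups of control libraries. DESeq2 1.42.0 was an alternative, beside other scaling (upper quartile), no filter, the 2 groups alone, blocks, and each library left out. The scripts were tested on simulated counts.

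CPM were scaled by TMM over all 90 libraries, with factors of 0.919 to 1.12. Gene symbols came by identifier from Gencode M21 (32919 matched). No pair of libraries within a group agreed within sampling noise (183 pairs, smallest mean chi-square 4.20). Replicates are animals by their labels, and reads carry no molecular identifiers. Regions of 1 animal are paired by design; their deviations from group means correlated above 0.1 in 13 of 30 amygdala and frontal cortex pairs, 24 of 28 amygdala and hypothalamus pairs and 15 of 28 frontal cortex and hypothalamus pairs.

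The members and lists were chosen with earlier results of these data known. The members are named throughout, genes of the lists where used, and for likeness the 3 genes with the highest correlation.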

Additional observations from a re-analysis of the deposited data

Results flagged for a closer look

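Within groups of 5 or 6 libraries, a library that lay far from the others relative to the range of its group was marked. The 30 min hypothalamus controls, with 3 libraries, were left out. Of 119 sets of a gene and a group, 17 held such a library, and 6.04% of the sets of all genes tested held one. The 119 include Hcrt in amygdala and frontal cortex, where it was too low to be tested and so is not in the 6.04%. Libraries were read one by one because single ones were known to stand apart, so the count is a description and not a test. The 17 are not independent, since frontal cortex intruder library 1 of 120 min gives 3 of them.

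In frontal cortex, Pmch was high at 5.11 CPM in intruder library 2 of 60 min, 1.36 in intruder library 2 of 120 min and 0.564 in intruder library 4 of 30 min, where the nearest others had 0.238, 0.371 and 0.227. Intruder library 1 of 120 min was high for Gal (4.44 CPM, nearest 0.184), Galr1 (1.57, nearest 0.256) and Hcrtr2 (5.24, nearest 3.50). Hcrtr2 was 3.28 CPM in intruder library 1 of 60 min (nearest 2.16), and Mchr1 was 30.1 in intruder library 3 of 60 min (nearest 23.7). Among frontal cortex controls of 60 min, Hcrt was 0.165 CPM in library 5 and Galr1 0.230 in library 2, both on few reads.

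In hypothalamus, Hcrt was low at 38.0 CPM in intruder library 4 of 60 min, where the nearest had 97.3. Hcrtr1 was 11.3 CPM in intruder library 4 of 30 min (nearest 10.0), Hcrtr2 was 12.4 in control library 5 of 60 min (nearest 11.5) and 14.6 in intruder library 3 of 60 min (nearest 11.9), and Mchr1 was 13.7 in intruder library 1 of 120 min. In amygdala, Pmch was 1.11 CPM in control library 3 of 60 min (nearest 0.276) and Galr1 was 3.24 in control library 4 of 30 min (nearest 2.61).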

How the results depend on the processing

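The region differences held best: under every alternative run, all 7 members were called in hypothalamus against frontal cortex and against amygdala. Of 19 called differences between regions 1 changed sign, Pmch in amygdala against frontal cortex, at -0.45 in intruder libraries and 0.63 in these without frontal cortex library 2 of 60 min, a setting chosen after seeing the data. No member was called in a comparison of intruder with control under any alternative, but 23 of the 57 estimates changed sign in at least 1 of them. Control and intruder libraries with equal replicate numbers had correlations of -0.70 to 0.71, and in 0 of 9 sets were all above 0.1. Regions of 1 animal, paired by design, also fell short of that mark, so it cannot decide whether equal numbers pair animals. With the replicate block the count of called members stayed 0, and the Hcrtr2 estimate in amygdala at 120 min was 0.47 ± 0.116 (adjusted p = 0.0609). The library index could not be used as a block in frontal cortex at 120 min, where it was the same split as the condition. In amygdala, the count of members called over time in intruder libraries was 1, 0 without the filter on low counts and 0 to 1 with a library left out. In frontal cortex controls it was 2, and 1 to 2 with a library left out. The ratio of Hcrt to Pmch ranged over left-out libraries from -0.52 to 0.20 at 30 min, -0.11 to 0.10 at 60 min and -0.25 to 0.27 at 120 min. Over all genes, called counts were 93 in amygdala at 120 min (0 to 409 under alternatives, 6 to 218 with a library left out) and 34 in hypothalamus at 120 min (0 to 100, 19 to 53). Counts outside hypothalamus rest on few reads for Hcrt, Pmch and, in frontal cortex, Gal and Galr1, which limits what can be read from them.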

Other observations

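The genes whose level moved most like a member across the 28 hypothalamus libraries, with group means taken out and among 14361 genes, are given as a description without a test. For Hcrt they were Lbh and Zfp934 (r of 0.78 each) and Lhx5 (0.77), a transcription factor of the developing forebrain. For Pmch they were Npvf, the precursor of another hypothalamic peptide (0.85), Sqle, an enzyme of cholesterol synthesis (0.85), and Cbln4, a secreted synaptic protein (0.84). For Gal they were Snrpd3 (0.82), Brs3, a bombesin receptor family member of the hypothalamus (0.81), and Arl6 (0.81).

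Among the receptors, Hcrtr2 had the closest likenesses: Sulf1 (0.93), Asb4 (0.92), a gene of arcuate neurons, and Atic (0.92). Hcrtr1 was closest to Plpbp (0.80), Acot7 (0.77) and Pcbp4 (0.77), Mchr1 to Vhl (0.81), Fam207a (0.75) and Tsnax (0.74), and Galr1 to Alg2 (0.80), Meaf6 (0.80) and Cckar (0.76). Genes above a mean of 1 CPM were searched, and the values share the same libraries.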
